A study of Homo sapiens with 4 samples.

Results

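The ubiquitin-conjugating enzymes of the UBE2 family were followed in the human colorectal cancer lines HCT116 and RKO, both long established in culture, with and without overexpression of AVEN. Members were the protein-coding rows whose symbol is UBE2 followed by a letter and at most 1 digit, which gave 34 genes of 60612 in the deposited tables. The rule leaves out family members with other kinds of name, such as CDC34. Each line was sequenced once with AVEN overexpression (OE) and once as AVEN wildtype (WT), giving 4 libraries of poly(A)-selected RNA with 1 library per group. The labels give no treatment, time, vector, promoter or clone, and they do not say whether the WT cells carried an empty vector.

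Ubiquitin is attached to proteins by a chain of enzymes. An E1 enzyme activates it, an E2 or ubiquitin-conjugating enzyme carries it on a cysteine, and an E3 ligase brings the charged E2 to the substrate. The E2 often sets which lysine of ubiquitin is used to build a chain, and with it whether the substrate is degraded or used in signalling. A few E2s carry ubiquitin-like proteins such as SUMO, NEDD8 or ISG15, and the UEV proteins (UBE2V1 and UBE2V2) have the fold without the active cysteine. In colorectal cancer cells the E2s of the anaphase-promoting complex are known as genes of dividing cells.

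AVEN binds BCL-xL and APAF1 and restrains caspase activation. Its level was 2.96 FPKM in the HCT116 OE library, against 1.53 FPKM in the HCT116 WT library. In RKO it was 4.43 FPKM in the OE library, against 1.34 FPKM in the WT library. The OE library was thus the higher one in both lines, 1.94-fold in HCT116 (95% counting interval 1.16 to 3.41) and 3.32-fold in RKO (2.04 to 5.80). These folds rest on about 48 fragments in OE and 22 in WT for HCT116, and on 68 and 21 for RKO. The authors marked AVEN as significant in RKO and not in HCT116. FPKM are fragments scaled to transcript length and to library size, and intervals here cover counting error only. Genes at 1 FPKM or more numbered 10737 to 11418 per library. Mitochondrially encoded genes took 45.6% and 44.7% of summed FPKM in the OE and WT libraries of HCT116, and 30.3% and 32.8% in those of RKO. Of 10 epithelial and colorectal markers, 6 reached a mean of 1 FPKM in HCT116 and 4 in RKO. CDX2, an intestinal transcription factor, was at 4.83 and 5.44 FPKM in the OE and WT libraries of HCT116 and at 4.83 and 4.38 FPKM in those of RKO. KRT18, KRT8 and EPCAM also reached 1 FPKM in all 4 libraries, while CDH1 and KRT19 stayed under 0.1 FPKM in both RKO libraries and CDH17, LGALS4 and VIL1 in every library. Of 8 markers of fibroblasts, endothelium and blood, COL1A1 alone reached 1 FPKM, in HCT116.

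UBE2K stood out among the 34 genes. In the values as deposited its mRNA was at least 2-fold lower in the OE library than in the WT library of each line. No other member was at least 1.5-fold lower in both lines, and UBE2K itself fell short of 2-fold in a line under some scalings. UBE2Q2 was lower and UBE2S was higher in the OE library of RKO alone. The other members that averaged 1 FPKM or more differed by less than 1.5-fold between the OE and WT libraries of either line, except that UBE2F in HCT116 passes it at -0.60 if the fragments of an overlapping readthrough gene are added. UBE2E2 was present in HCT116 and at or next to the listed floor in RKO. Each group has 1 library, so the differences between OE and WT in a single line stand without replicates and without a test.

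The promoters of these 4 genes are printed here because 3 of them were past 1.5-fold between OE and WT and UBE2E2 was next to the floor in 1 line. UBE2L6, the other member apart between the lines, was present in all libraries and its promoter is not printed. The printed promoters come from RefSeq on GRCh38.p14 and run 5′ to 3′ on the gene's strand. Each runs from 250 bases before the start listed by RefSeq to 50 bases after it. That start can differ from the gene start in GENCODE, which lies at 39698044 for UBE2K. Capitals mark matches, on either strand, of GGGCGG (the GC box), CCAAT (the NF-Y box) and GGCGGGA (an E2F-type site, which can overlap the GC box). CACGTG (the E-box) and TTTGAA (the cell cycle homology region) were also searched. The windows are chr4:39697886-39698185 on the plus strand for UBE2K, chr15:75843197-75843496 on the plus strand for UBE2Q2, chr19:55407739-55408038 on the minus strand for UBE2S and chr3:23202848-23203147 on the plus strand for UBE2E2.
UBE2K: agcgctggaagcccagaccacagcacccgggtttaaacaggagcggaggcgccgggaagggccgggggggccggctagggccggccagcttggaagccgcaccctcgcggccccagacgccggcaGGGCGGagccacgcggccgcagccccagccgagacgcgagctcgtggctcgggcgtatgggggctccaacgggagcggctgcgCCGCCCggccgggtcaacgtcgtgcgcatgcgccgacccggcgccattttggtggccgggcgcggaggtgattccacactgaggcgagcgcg
UBE2Q2: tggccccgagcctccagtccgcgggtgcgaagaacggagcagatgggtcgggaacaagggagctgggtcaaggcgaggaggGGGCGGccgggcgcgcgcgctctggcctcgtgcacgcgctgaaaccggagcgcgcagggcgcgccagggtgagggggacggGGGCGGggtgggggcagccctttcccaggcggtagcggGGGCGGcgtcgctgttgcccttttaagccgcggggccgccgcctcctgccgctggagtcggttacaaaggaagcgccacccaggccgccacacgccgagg
UBE2S: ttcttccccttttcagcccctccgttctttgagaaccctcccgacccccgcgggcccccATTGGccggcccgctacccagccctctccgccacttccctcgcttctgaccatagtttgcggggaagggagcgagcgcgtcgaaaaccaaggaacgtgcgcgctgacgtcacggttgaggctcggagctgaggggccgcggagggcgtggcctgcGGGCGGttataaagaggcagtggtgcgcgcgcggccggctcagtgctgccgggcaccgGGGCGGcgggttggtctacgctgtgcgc
UBE2E2: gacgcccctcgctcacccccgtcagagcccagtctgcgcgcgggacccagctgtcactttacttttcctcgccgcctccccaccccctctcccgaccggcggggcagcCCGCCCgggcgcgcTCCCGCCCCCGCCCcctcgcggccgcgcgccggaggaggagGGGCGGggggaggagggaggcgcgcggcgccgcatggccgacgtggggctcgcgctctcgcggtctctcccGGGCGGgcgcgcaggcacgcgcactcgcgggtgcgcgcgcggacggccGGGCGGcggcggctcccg

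All 4 windows are rich in CG dinucleotides, with 42 in UBE2K, 38 in UBE2Q2, 35 in UBE2S and 53 in UBE2E2, against a median of 14 over 35116 promoters of the same length. The UBE2E2 window held more CG dinucleotides than 99.4% of those promoters. GGGCGG occurred 2 times in UBE2K, 3 times in UBE2Q2, 2 times in UBE2S and 6 times in UBE2E2, and 45.0% of all promoters held it. UBE2S held 1 CCAAT box, found in 34.6% of all promoters, and UBE2E2 held 1 GGCGGGA, found in 15.4%. A promoter entry was used for 26 of 34 members, and the others had none or lie on a chromosome left out here. Promoters of that chromosome stay in the shares of all promoters. Among the 26 members, 22 held GGGCGG, 8 held CCAAT, 5 held GGCGGGA, 3 held TTTGAA and 0 held CACGTG. The last 2 were found in 15.2% and 7.26% of all promoters. A match describes these letters and is not a mapped binding site.

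The members differed widely in level. UBE2S, UBE2C and UBE2M had the highest mean FPKM over the 4 libraries, followed by UBE2L3 and UBE2V1. In sum the family reached 688 FPKM in the HCT116 OE library and 757 FPKM in the HCT116 WT library. The sum was 754 FPKM in the RKO OE library and 738 FPKM in the RKO WT library. UBE2C and UBE2S together made up 33.9% of that sum in HCT116 OE, 34.5% in HCT116 WT, 33.9% in RKO OE and 28.3% in RKO WT. RKO WT was the library with the smallest share of these mitotic E2s. A mean of at least 1 FPKM was reached by 32 members in HCT116 and 31 in RKO, and these are called measured here. UBE2U was listed at 0.0001 FPKM, the value the authors gave to genes without signal, in all 4 libraries. UBE2L5 did not exceed 0.0075 FPKM in any library.

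**Figure D1:**
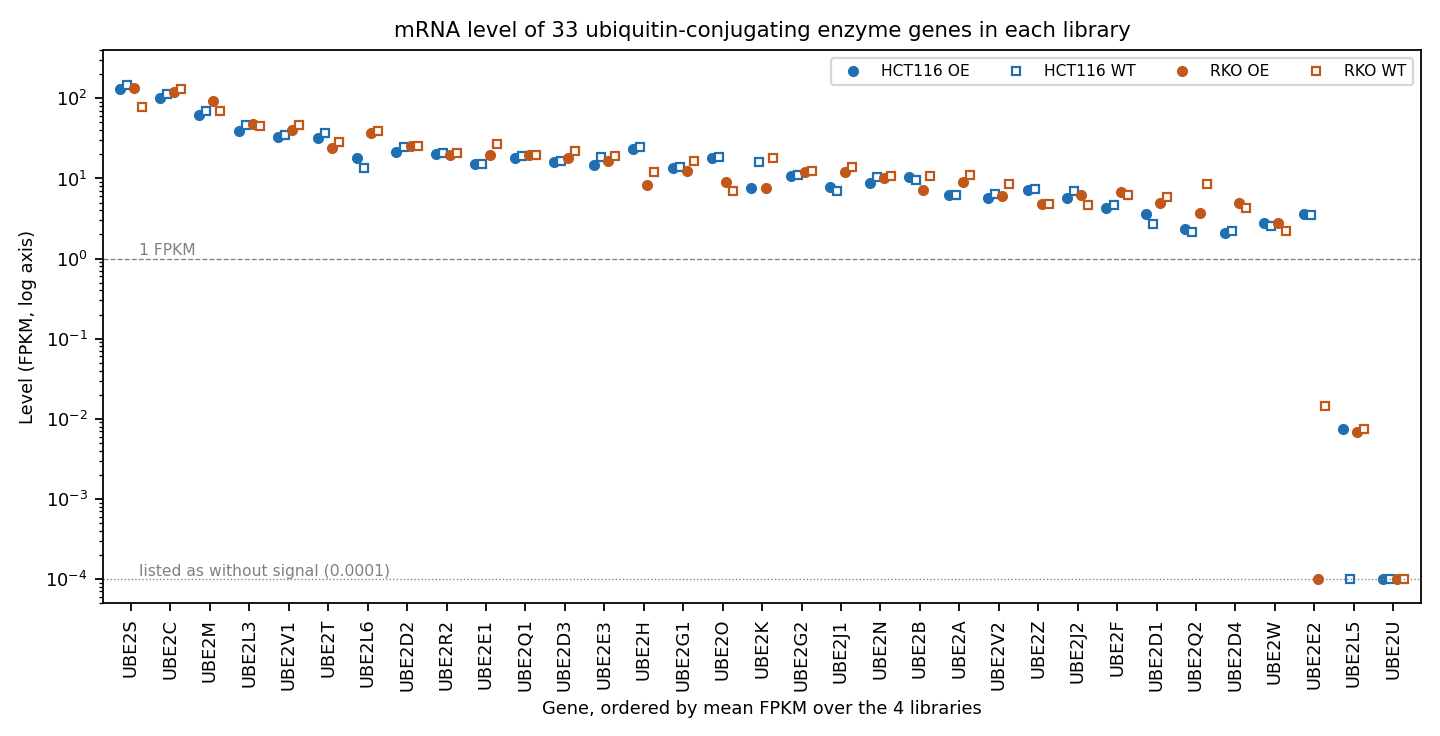
Level of 33 of the 34 UBE2 genes in FPKM on a log axis, 1 symbol per library, ordered by mean. UBE2S and UBE2C lead in all libraries, UBE2E2 is at 3.63 and 3.48 FPKM in HCT116 and next to the floor of 0.0001 FPKM in RKO, and UBE2U is at the floor in all 4.

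The first comparison asked which UBE2 mRNAs differ between AVEN-overexpressing and wildtype cells within a line. Differences are log2((OE + 1)/(WT + 1)) in FPKM, and a gene is counted when it differs by at least 1.5-fold on that scale. In HCT116, 1 of 32 measured members was counted, UBE2K, against 6.49% of the 11333 genes measured in that line (3.26% higher and 3.22% lower in OE). In RKO, 3 of 31 measured members were counted, against 12.5% of 11007 genes. Of these members 1 was higher and 2 were lower in OE, where 4.11% of all genes were higher and 8.43% lower. Neither share exceeds the background of its line. At 2-fold, 1 member was counted in HCT116 and 2 in RKO, with backgrounds of 2.05% and 3.25%. The median difference of the members was -0.07 in HCT116 and -0.08 in RKO, beside medians of 0.01 and -0.09 over all genes. Below 0 lay 23 of 32 members in HCT116, against 48.6% of all genes, and 21 of 31 in RKO, against 59.3% of all genes. The median size of a member's difference, without its sign, was 0.11 in HCT116 and 0.21 in RKO, and that of all genes was 0.15 and 0.26. By counting error alone, the interval of the fold lay above 1 for 3 members, below 1 for 9 and across 1 for 20 in HCT116. In RKO it lay above 1 for 5 members, below 1 for 12 and across 1 for 14. Intervals were computed for the members and AVEN only, so no share over all genes stands beside these counts. They are therefore not read as a result about the family.

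**Figure D2:**
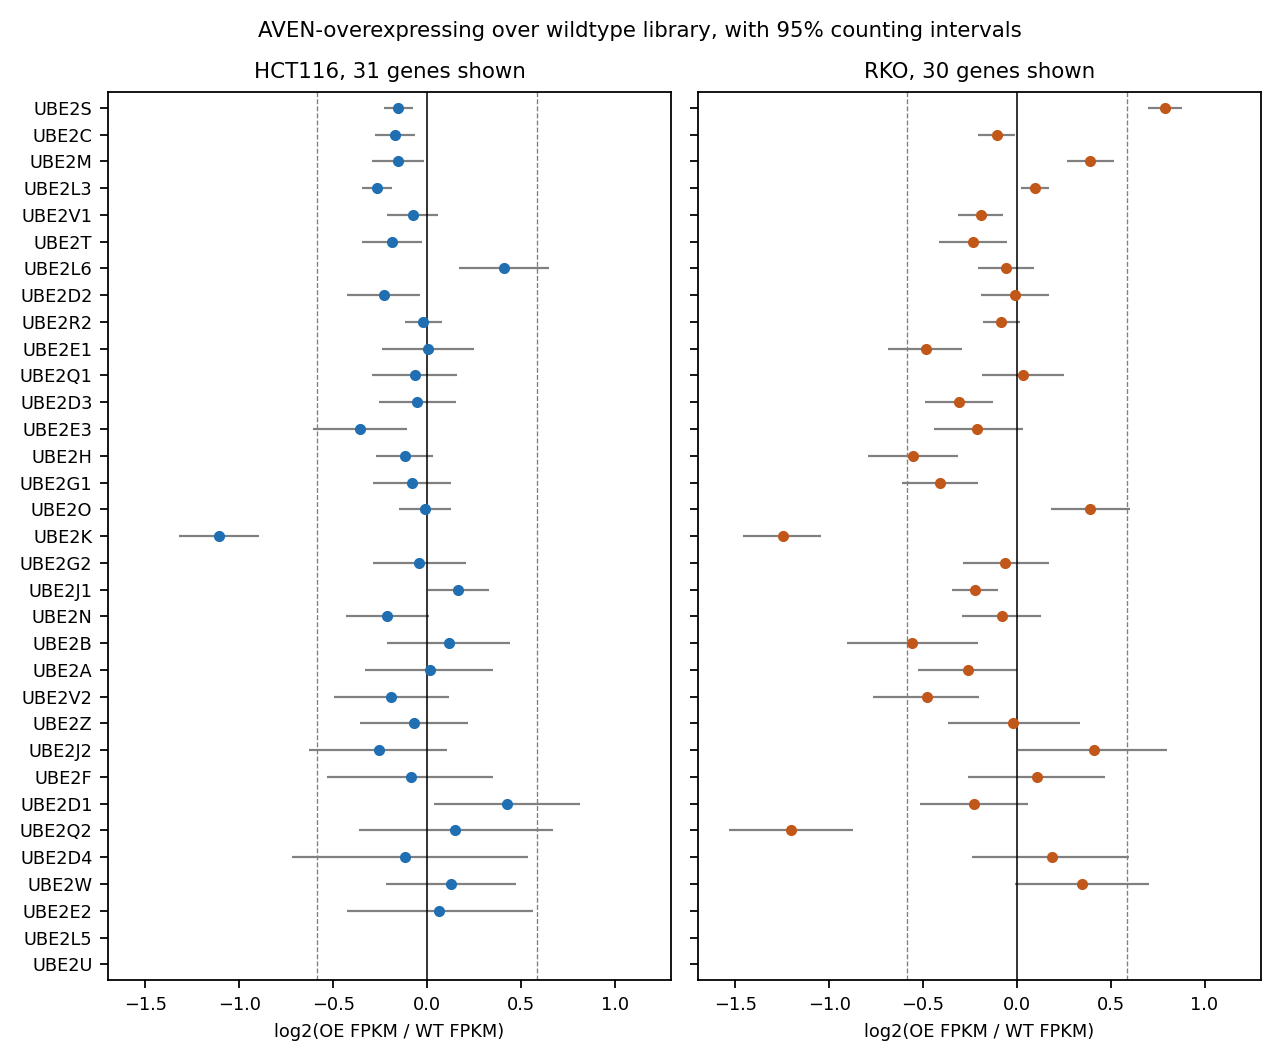
Ratio of OE to WT FPKM of 31 of the 32 measured members in HCT116 and 30 of the 31 in RKO on a log2 axis, with bars for 95% counting intervals and dashed lines at 1.5-fold. UBE2K lies left of the dashed line in both lines, and UBE2Q2 and UBE2S lie past it in RKO alone.

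UBE2K (ENSG00000078140, chr4:39698044-39782792, plus strand), also known as HIP2 for its binding to huntingtin, builds chains linked through lysine 48 of ubiquitin. It was at 7.52 FPKM in the HCT116 OE library, against 16.2 FPKM in the HCT116 WT library. In RKO it was at 7.59 FPKM in the OE library, against 18.0 FPKM in the WT library. Both OE libraries thus lay below both WT libraries, and the levels of the 2 lines were close within each genotype. The WT level was 2.15-fold that of OE in HCT116 (95% counting interval 1.86 to 2.50, from about 281 fragments in OE and 543 in WT). It was 2.38-fold that of OE in RKO (2.06 to 2.75, from about 268 fragments in OE and 665 in WT). The differences were -1.01 and -1.15 on the log2 scale. A difference at least as low was found in 111 of 11333 genes in HCT116 and in 150 of 11007 in RKO. In both lines together, 54 of 11525 genes were at least 1.5-fold lower in OE, which is 0.469%, and 13 were at least 2-fold lower, which is 0.113%. UBE2K was 1 of those 13 and the last of them by the weaker of its differences.

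Taking the lines as replicates of the overexpression, the genotype effect on UBE2K in limma was -1.08 on the log2 scale with a standard error of 0.23 (95% interval -1.58 to -0.58). It was lower in OE in 2 of 2 lines. Its unadjusted p was 0.000477 and its Benjamini-Hochberg adjusted p over 11525 genes was 0.183, so it did not pass. No member passed limma at an adjusted p of 0.05, which 0.121% of genes did. At an unadjusted p under 0.05, UBE2K was the 1 member of 32, against 3.51% of all genes. The fit has 1 residual degree of freedom, which is how far the OE minus WT difference varies between the lines. The p-values also lean on a prior variance drawn from all genes tested. No label speaks of separate cultures, so technical spread and differences between the lines cannot be told apart in that residual. The authors' deposited table gives UBE2K a p of 0.0873 in HCT116 and 0.0909 in RKO. It marks no UBE2 gene as significant in either line, where 1.5% and 2.2% of all measured genes carry the mark.

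**Figure D3:**
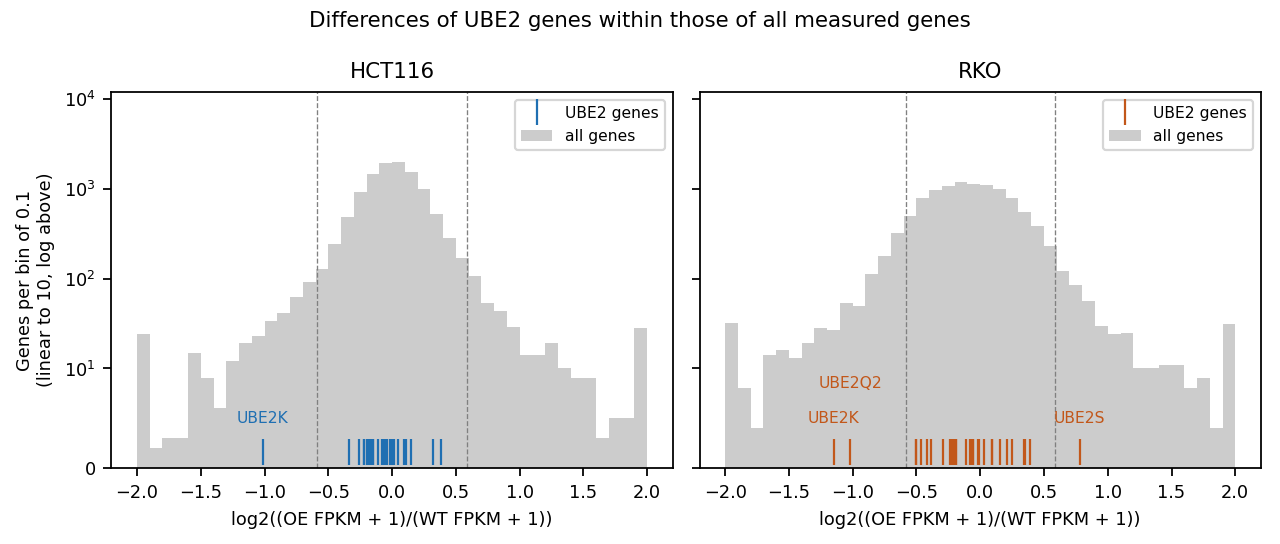
Histogram of the OE minus WT differences of all measured genes in grey, with a tick for each measured UBE2 gene and dashed lines at 1.5-fold; the end bars also hold genes beyond 2 on either side. The family lies within the bulk of each distribution apart from UBE2K in both lines, and UBE2Q2 and UBE2S in RKO.

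UBE2C and UBE2S serve the anaphase-promoting complex, which drives exit from mitosis. UBE2C places the first ubiquitins on its substrates and UBE2S extends them through lysine 11. UBE2S (ENSG00000108106, chr19:55399745-55407777, minus strand) was at 134.0 FPKM in the RKO OE library, against 77.6 FPKM in the RKO WT library. In HCT116 it was at 131.9 FPKM in OE, against 146.7 FPKM in WT. RKO WT was the one low library, and the other 3 lay close together. The fold of OE over WT was 1.73 in RKO (1.62 to 1.84) and 0.90 in HCT116 (0.85 to 0.95), both by counting error only. UBE2SP1, a processed pseudogene of UBE2S, was also higher in RKO OE, at 10.0 FPKM against 6.64 FPKM in RKO WT, and how the authors' counting split reads between the copies was not tested. UBE2C was at 101.7 FPKM in HCT116 OE, against 114.3 FPKM in HCT116 WT, and at 121.6 FPKM in RKO OE, against 131.1 FPKM in RKO WT. The partner E2s of the complex therefore did not move alike in RKO, where UBE2S differed by 0.78 and UBE2C by -0.11. Neither passed limma, where the adjusted p was 1 for UBE2S and 1 for UBE2C. In bulk RNA, fewer dividing cells and less of these mRNAs per cell cannot be told apart.

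Among the 17 measured subunits and partners of the anaphase-promoting complex, 0 were at least 1.5-fold apart in HCT116 and 2 in RKO, with medians of -0.06 and 0.03. That far apart were 6.49% of all genes in HCT116 and 12.5% in RKO, so neither count exceeds its background. CDC27, a core subunit, was at 8.16 FPKM in RKO OE, against 21.3 FPKM in RKO WT. FBXO5, which inhibits the complex, was at 4.96 FPKM in RKO OE, against 8.75 FPKM in RKO WT. CDC20, its activator in mitosis, was at 155.7 FPKM in HCT116 OE, against 214.3 FPKM in HCT116 WT, and at 109.9 FPKM in RKO OE, against 90.7 FPKM in RKO WT. Of 15 genes of mitosis, 13 lay below 0 in HCT116 and 9 in RKO, with medians of -0.20 and -0.21. Those past 1.5-fold were MKI67, a proliferation marker, at 13.7 FPKM in HCT116 OE against 25.4 FPKM in HCT116 WT, and TOP2A, a topoisomerase, at 8.50 FPKM in RKO OE against 14.96 FPKM in RKO WT. MKI67 did not take that direction in RKO, at 16.1 FPKM in OE against 14.1 FPKM in WT. Below 0 lay 48.6% of all genes in HCT116 and 59.3% in RKO. After a correction for GC content and transcript length, given below, the median of the mitosis genes was -0.18 in HCT116 and -0.02 in RKO. In RKO 0 of them were then past 1.5-fold.

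UBE2Q2, a member of the less studied UBE2Q branch, was at 3.70 FPKM in the RKO OE library, against 8.51 FPKM in the RKO WT library. In HCT116 it was at 2.36 FPKM in OE, against 2.12 FPKM in WT. RKO WT was the one high library. The WT level was 2.30-fold that of OE in RKO (95% counting interval 1.83 to 2.90), while the HCT116 interval for OE over WT, 0.777 to 1.59, spans 1. UBE2Q1, its relative, was at 18.1 FPKM in HCT116 OE, 18.9 FPKM in HCT116 WT, 19.9 FPKM in RKO OE and 19.5 FPKM in RKO WT. UBE2Q1 thus lay within a narrow range in all 4 libraries.

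In RKO the differences moved with the GC content of the transcripts. Across the 31 measured members, Spearman's rho between difference and GC content was 0.689, and across all genes measured in RKO it was 0.535. In HCT116 it was -0.266 across 32 members and -0.113 across all genes. These are descriptions across genes that share the same pair of libraries. After a smooth correction for GC content and transcript length, UBE2K stood at -1.08 in HCT116 and -0.81 in RKO, UBE2Q2 at -0.70 in RKO and UBE2S at 0.63 in RKO. All 3 stayed past 1.5-fold, and UBE2W joined them in RKO at 0.67. The counting interval of the uncorrected fold of UBE2W in RKO, 0.995 to 1.63, spans 1. The corrected differences of UBE2D3 and UBE2V2, whose transcripts have GC contents of 44.3% and 38.3%, were 0.00 and -0.02 in RKO, where the uncorrected ones were -0.29 and -0.42. Of the 31 members measured in RKO, 9 changed sign under the correction and 6 under centring, and the median of the members turned to 0.03 and 0.01. In HCT116 1 of 32 changed sign under each of these, and 6 under quantile normalization. Directions of small differences in RKO, of members and of partner lists alike, therefore hold for the values as deposited. Over all genes, 32.8% of those past 1.5-fold in RKO were higher in OE. That share was 49.7% after the correction, 52.8% after centring on the median gene and 50.6% after quantile normalization.

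**Figure D4:**
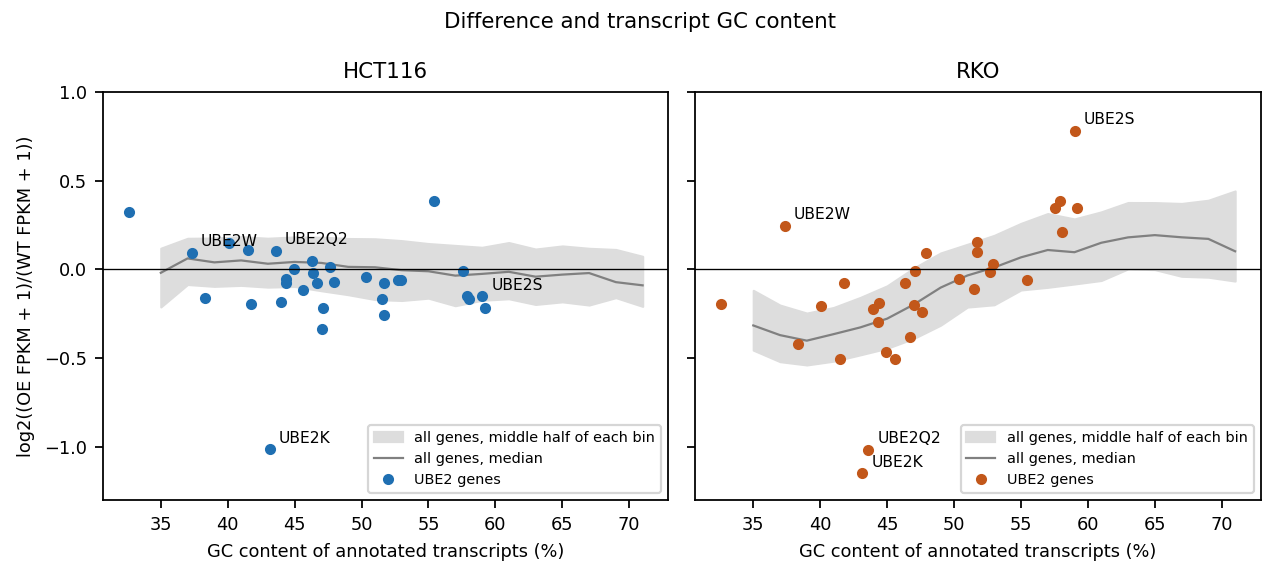
Difference of each measured UBE2 gene against the GC content of its annotated transcripts, over the median (line) and the span between quartiles (band) of all genes per bin of GC content. By construction, about as many genes of each bin lie inside the band as outside it. In RKO 17 of the 30 members within the plotted bins lie inside the band, 4 lie below it (UBE2K, UBE2Q2, UBE2H and UBE2E1) and 9 above it, among them UBE2S, UBE2M and UBE2W. In HCT116 21 of the 31 members within the plotted bins lie inside it, 9 below it and 1 above it.

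The UBE2D and UBE2E subfamilies are broad E2s that work with many RING ligases. UBE2D2 was at 21.2 FPKM in HCT116 OE, against 24.8 FPKM in HCT116 WT, and at 25.2 FPKM in RKO OE, against 25.4 FPKM in RKO WT. UBE2D3 was at 15.9 FPKM in HCT116 OE, against 16.5 FPKM in HCT116 WT, and at 18.0 FPKM in RKO OE, against 22.3 FPKM in RKO WT. UBE2D1 was at 3.65 FPKM in HCT116 OE, against 2.72 FPKM in HCT116 WT, and at 5.01 FPKM in RKO OE, against 5.87 FPKM in RKO WT. UBE2D2 and UBE2D3 thus supplied most UBE2D mRNA, and UBE2D4 was the lowest of the 4 in each library, between 2.06 and 4.90 FPKM. Summed, UBE2D mRNA was 42.8 FPKM in HCT116 OE, 46.3 FPKM in HCT116 WT, 53.1 FPKM in RKO OE and 57.9 FPKM in RKO WT. UBE2E1 was at 15.06 FPKM in HCT116 OE, against 15.03 FPKM in HCT116 WT, and at 19.5 FPKM in RKO OE, against 27.3 FPKM in RKO WT. UBE2E3 was at 14.5 FPKM in HCT116 OE, against 18.6 FPKM in HCT116 WT, and at 16.7 FPKM in RKO OE, against 19.4 FPKM in RKO WT. Neither reached 1.5-fold in either line.

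UBE2A and UBE2B are the human counterparts of yeast RAD6, which mark PCNA with RAD18 and histone H2B with RNF20 and RNF40, and UBE2T serves FANCL in the Fanconi anaemia pathway. UBE2B was at 10.5 FPKM in HCT116 OE, against 9.65 FPKM in HCT116 WT, and at 7.23 FPKM in RKO OE, against 10.7 FPKM in RKO WT. UBE2A was at 6.23 FPKM in HCT116 OE, against 6.17 FPKM in HCT116 WT, and at 9.13 FPKM in RKO OE, against 11.0 FPKM in RKO WT. UBE2T was at 32.4 FPKM in HCT116 OE, against 36.9 FPKM in HCT116 WT, and at 24.1 FPKM in RKO OE, against 28.3 FPKM in RKO WT. All 3 lay below 0 in RKO, at -0.24, -0.50 and -0.22 for UBE2A, UBE2B and UBE2T, and none was counted. After the GC and length correction UBE2T stood at 0.03 in RKO, on the other side of 0. UBE2A shares 956 bases of exon with NKRF on the other strand, and the sources used here do not say whether the counting used strand. Of the E3 partners of these enzymes, 7 of 8 measured in RKO lay below 0, with a median of -0.45 that became -0.13 after the GC and length correction, and 3 of 9 in HCT116, with a median of 0.03. RNF40 went the other way in RKO, at 26.7 FPKM in OE against 12.9 FPKM in WT, and it was at 15.3 FPKM in HCT116 OE against 24.2 FPKM in HCT116 WT. Its partner RNF20 was at 6.70 FPKM in RKO OE, against 11.6 FPKM in RKO WT.

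UBE2N, known as UBC13, builds chains through lysine 63 together with UBE2V1 or UBE2V2. UBE2N was at 8.88 FPKM in HCT116 OE, against 10.3 FPKM in HCT116 WT, and at 10.1 FPKM in RKO OE, against 10.7 FPKM in RKO WT. UBE2V1, which serves NF-kappaB signalling, was at 33.3 FPKM in HCT116 OE, against 35.1 FPKM in HCT116 WT, and at 40.7 FPKM in RKO OE, against 46.5 FPKM in RKO WT. UBE2V2, which serves DNA damage tolerance, was at 5.67 FPKM in HCT116 OE, against 6.47 FPKM in HCT116 WT, and at 6.06 FPKM in RKO OE, against 8.44 FPKM in RKO WT. All 3 lay below 0 in both lines and under 1.5-fold, with medians of -0.16 in HCT116 and -0.19 in RKO. In RKO the direction depends on the scaling, since the GC and length correction put UBE2N at 0.29, UBE2V1 at 0.11 and UBE2V2 at -0.02, and centring on the median gene put UBE2N at 0.02. UBE2N shares 2474 bases of exon with NUDT4 on the other strand. The UBC13 ligases had medians of 0.05 in HCT116 and -0.23 in RKO, with 0 of 6 past 1.5-fold in each.

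UBE2J1, UBE2J2 and UBE2G2 act in the degradation of proteins from the endoplasmic reticulum. UBE2J1 was at 7.74 FPKM in HCT116 OE, against 6.89 FPKM in HCT116 WT, and at 11.9 FPKM in RKO OE, against 13.9 FPKM in RKO WT. UBE2J2 was at 5.78 FPKM in HCT116 OE, against 6.89 FPKM in HCT116 WT, and at 6.20 FPKM in RKO OE, against 4.67 FPKM in RKO WT. UBE2G2 was at 10.7 FPKM in HCT116 OE, against 11.0 FPKM in HCT116 WT, and at 11.9 FPKM in RKO OE, against 12.4 FPKM in RKO WT. UBE2J1 and UBE2J2 thus differed in opposite directions within each line, and each took the opposite direction in the other line. The corrected difference of UBE2J1 in RKO, 0.20, has the other sign from the uncorrected one, -0.21. Of their E3 partners, 0 of 9 reached 1.5-fold in either line in the values as deposited, with medians of 0.12 in HCT116 and -0.02 in RKO. In RKO, 2 of them were at least 1.5-fold higher in OE after centring. After quantile normalization 1 was, and 1 after the GC and length correction.

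UBE2R2 and UBE2G1 extend chains on substrates of cullin-RING ligases. UBE2R2 was at 20.2 FPKM in HCT116 OE, 20.5 FPKM in HCT116 WT, 19.5 FPKM in RKO OE and 20.7 FPKM in RKO WT, the narrowest range of the 3 chain-extending members given here with UBE2K. UBE2G1 was at 13.3 FPKM in HCT116 OE, against 14.1 FPKM in HCT116 WT, and at 12.3 FPKM in RKO OE, against 16.3 FPKM in RKO WT. UBE2K was thus alone among these chain-extending E2s in being past 1.5-fold. Of 14 core cullin-RING genes, 8 lay below 0 in HCT116 and 13 in RKO, with medians of -0.03 and -0.24. CUL2 was the 1 gene past 1.5-fold, at 6.29 FPKM in RKO OE against 10.3 FPKM in RKO WT. After the GC and length correction 5 of the 14 lay below 0 in RKO, with a median of 0.08, and none was past 1.5-fold.

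UBE2M and UBE2F carry NEDD8, and UBE2L6 carries ISG15. UBE2M was at 62.5 FPKM in HCT116 OE, against 69.5 FPKM in HCT116 WT, and at 91.8 FPKM in RKO OE, against 70.0 FPKM in RKO WT. RKO OE was thus the high library of UBE2M, at 1.31-fold the WT level (1.20 to 1.43), and its pseudogene UBE2MP1 was at 6.55 FPKM in RKO OE against 4.29 FPKM in RKO WT. UBE2F was at 4.34 FPKM in HCT116 OE, against 4.61 FPKM in HCT116 WT, and at 6.68 FPKM in RKO OE, against 6.21 FPKM in RKO WT. UBE2L6, an interferon-inducible gene, was at 17.9 FPKM in HCT116 OE, against 13.5 FPKM in HCT116 WT, and at 37.4 FPKM in RKO OE, against 38.9 FPKM in RKO WT. Its fold of 1.33 in HCT116 (1.12 to 1.57) was the highest of any member measured there apart from UBE2D1, at 1.34 (1.03 to 1.76). Among genes of the SUMO and NEDD8 pathways, 0 of 10 in HCT116 and 1 of 11 in RKO were past 1.5-fold, with medians of 0.03 and -0.23. That gene was SENP3, a SUMO protease, at 17.5 FPKM in RKO OE against 34.6 FPKM in RKO WT. Of the ISG15 and interferon-stimulated genes, 6 of 8 lay above 0 in HCT116 and 4 of 9 in RKO, with medians of 0.14 and -0.02. HERC6 in RKO was the 1 past 1.5-fold, at 2.37 FPKM in OE against 4.10 FPKM in WT. None of this list was 1.5-fold lower in RKO after centring, quantile normalization or the GC and length correction. In RKO 1 gene of the list was at least 1.5-fold higher in OE after centring, and 1 after quantile normalization.

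The remaining members have separate roles. UBE2L3 serves HECT and RBR ligases such as parkin, and it was at 39.0 FPKM in HCT116 OE, against 46.8 FPKM in HCT116 WT, and at 47.8 FPKM in RKO OE, against 44.7 FPKM in RKO WT. UBE2H, the E2 of the CTLH complex, was at 23.1 FPKM in HCT116 OE, against 25.1 FPKM in HCT116 WT, and at 8.26 FPKM in RKO OE, against 12.1 FPKM in RKO WT. UBE2O, a large enzyme with both E2 and E3 activity, was at 18.3 FPKM in HCT116 OE, against 18.4 FPKM in HCT116 WT, and at 9.13 FPKM in RKO OE, against 6.96 FPKM in RKO WT. None of these reached 1.5-fold. UBE2Z, which is charged by the E1 enzyme UBA6, was at 7.14 FPKM in HCT116 OE, against 7.50 FPKM in HCT116 WT, and at 4.79 FPKM in RKO OE, against 4.86 FPKM in RKO WT. UBE2W, which can modify the amino terminus of proteins, was at 2.79 FPKM in HCT116 OE, against 2.54 FPKM in HCT116 WT, and at 2.80 FPKM in RKO OE, against 2.21 FPKM in RKO WT. UBE2W was the 1 member above 0 in both lines among the 31 measured in both, where 15.7% of all genes were. Its counting interval spanned 1 in each line. Below 0 in both were 14 of 31, where 25.4% of all genes were, and this count became 8 after the GC and length correction, 10 after centring and 11 after quantile normalization.

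Of the CTLH partners of UBE2H, 9 of 10 lay below 0 in RKO and 4 of 10 in HCT116, with medians of -0.31 and 0.06. After the GC and length correction 5 of the 10 lay below 0 in RKO, with a median of -0.04. YPEL5 was at 3.27 FPKM in RKO OE, against 6.02 FPKM in RKO WT, and MAEA, a catalytic subunit, was at 3.29 FPKM in RKO OE, against 5.88 FPKM in RKO WT. Of 13 HECT and RBR partners of UBE2L3, ITCH was the 1 past 1.5-fold in HCT116, at 4.35 FPKM in OE against 1.89 FPKM in WT, while in RKO it was at 3.28 FPKM in OE against 4.21 FPKM in WT. NEDD4 was the 1 in RKO, at 1.70 FPKM in OE against 3.08 FPKM in WT. The E1 enzymes, which charge all E2s, had medians of -0.04 in HCT116 and -0.04 in RKO. In RKO 2 of 9 were past 1.5-fold, UBA6 at 3.05 FPKM in OE against 5.68 FPKM in WT and UBA2, the SUMO E1 subunit, at 9.17 FPKM in OE against 14.9 FPKM in WT. Ubiquitin and its relatives had medians of -0.06 in HCT116 and 0.09 in RKO over 13 genes, with URM1 past 1.5-fold in RKO at 29.9 FPKM in OE against 18.3 FPKM in WT. E2-like genes named otherwise had medians of -0.04 in HCT116 and -0.19 in RKO, and UEVLD and TSG101 were past 1.5-fold in RKO. TSG101, an inactive E2 homologue of endosomal sorting, was at 8.38 FPKM in RKO OE, against 13.1 FPKM in RKO WT. At least 1.5-fold lower in RKO were 8.43% of all genes. In RKO, none of the E1 enzymes, E2-like genes or UBE2L3 partners was past 1.5-fold after quantile normalization or the GC and length correction. After centring, 1 of them, an E1 enzyme, was.

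The second comparison set the levels in HCT116 beside those in RKO. The lines stand in separate tables and the 2 libraries of a line differ in genotype, so this is a description with no test. A gene was called apart when both libraries of one line lay at least 2-fold above both of the other on the FPKM + 1 scale, which held for 2 of 32 members and for 13.1% of 11525 genes (7.23% higher and 5.88% lower in HCT116). UBE2E2 (ENSG00000182247) was at 3.63 FPKM in HCT116 OE and 3.48 FPKM in HCT116 WT. In RKO it was listed at 0.0001 FPKM in OE and was at 0.0144 FPKM in WT, and a count of 0 allows up to about 0.150 and 0.144 FPKM in those libraries. UBE2E1, whose gene lies 214 kb from UBE2E2 on chromosome 3, was present in all 4 libraries, as given above. UBE2L6 was lower in HCT116, at 17.9 and 13.5 FPKM, than in RKO, at 37.4 and 38.9 FPKM. That the groups of 2 libraries did not overlap for either gene follows from the rule for calling a gene apart and is no further result.

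Other members differed by more than 2-fold in their means, though not in every pair of libraries. UBE2H averaged 24.1 FPKM in HCT116 and 10.2 FPKM in RKO, and UBE2O averaged 18.3 FPKM in HCT116 and 8.04 FPKM in RKO. Rescaling without mitochondrially encoded genes set both apart and took UBE2L6 back under the 2-fold margin, since these genes hold a larger share of the FPKM in HCT116 than in RKO. UBE2E2 stayed apart under that rescaling. The members with close levels in both lines included UBE2R2, with means of 20.4 FPKM in HCT116 and 20.1 FPKM in RKO, and UBE2K, with means of 11.9 FPKM in HCT116 and 12.8 FPKM in RKO. UBE2Q2 averaged 2.24 FPKM in HCT116 and 6.11 FPKM in RKO, where its OE and WT libraries lay far apart.

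**Figure D5:**
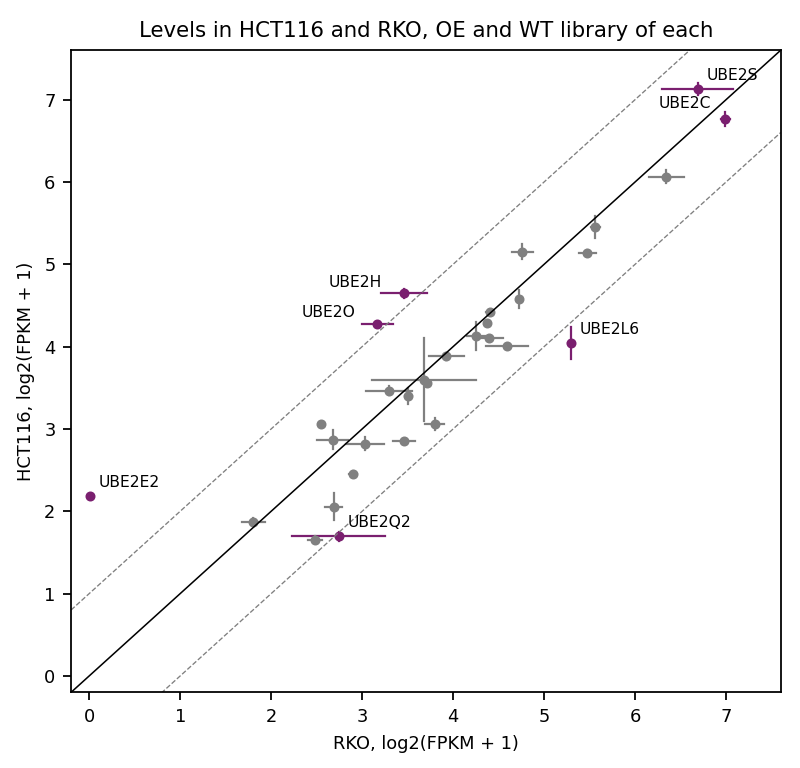
Mean log2(FPKM + 1) in HCT116 (vertical axis) and RKO (horizontal axis), for 31 of the 32 members with a mean of at least 1 FPKM over the 4 libraries, with bars from the lower to the higher of the 2 libraries of a line. Dashed lines mark 2-fold: UBE2E2 lies above the upper one and UBE2L6 below the lower one, while UBE2H and UBE2O have means just above the upper one and UBE2Q2 has a mean just below the lower one, without all their libraries being 2-fold apart.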

How the data were processed

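RNA was extracted with Trizol and selected on poly(A) for paired-end sequencing, per the labels' protocols. The authors deposited 1 table per line with FPKM per gene and library, and they set genes without signal to 0.0001 FPKM. The fold, its log2 and the p-value and q-value columns in the deposited table are the authors' own comparison of OE with WT. The mouse build mm8, StringTie 1.3.0, HISAT2 2.0 and Bowtie 0.12.2 are named in the submitters' processing notes, while the identifiers are human, so the build used is unsettled. Strand and the handling of overlapping genes are not given in the sources used here. Groups came from the sample titles.

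The members, the partner lists and the rules were chosen with earlier results of these data known. All members are named except 1, which enters the counts but is not reported here, along with AVEN and, from each partner list, up to the 2 highest and 2 lowest genes per line. A few partners beyond these, and the genes in the marker and pseudogene sentences, were named after their values were seen. Differences are log2((OE + 1)/(WT + 1)) for genes averaging 1 FPKM or more, which understates those of low genes, and have no test in a single line. Over both lines, log2(FPKM + 1) was modelled on genotype with line as a block in limma 3.58.1 (R 4.3.3, trended prior), with two-sided p-values adjusted by Benjamini-Hochberg over 11525 genes. It was tested on simulated data.

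Depth was estimated from the FPKM steps of single-exon genes. By it, 1 FPKM on 1 kilobase stands for 20.8, 18.6, 19.6 and 20.5 fragments in HCT116 OE, HCT116 WT, RKO OE and RKO WT. Of low values, 46.6% to 47.9% fell on whole or midway fragment steps to within 2%, so whole reads were not recovered and the step is an estimate. Intervals are exact conditional (Clopper-Pearson) 95% intervals on estimated fragments with the mean transcript length, and a count of 0 is taken to allow 3 fragments. Both cover counting error only, and copies of a fragment cannot be told apart. Gene coordinates, lengths and GC content come from GENCODE 29 on GRCh38, which held 58394 of 60612 identifiers. Promoters come from RefSeq on GRCh38.p14. Protein sequences were not used here.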

Additional observations from a re-analysis of the deposited data

Results flagged for a closer look

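For 4 members the OE minus WT differences had opposite directions in the 2 lines, with each counting interval on one side of 1. The difference between the lines was not tested, since each has 1 library per group. Intervals were not computed for all genes, so the share of all genes that meet this rule is not known. Opposite directions are therefore not shown to be particular to these members. UBE2S differed by -0.15 in HCT116 and 0.78 in RKO, and UBE2M by -0.15 in HCT116 and 0.39 in RKO. After correction for GC content and length these stood at -0.08 and 0.63 for UBE2S and at -0.05 and 0.19 for UBE2M. UBE2L3 differed by -0.26 in HCT116 and 0.10 in RKO. UBE2J1 differed by 0.15 in HCT116 and -0.21 in RKO, and after the correction by 0.01 and 0.20, so that its direction in RKO depends on the scaling.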

How the results depend on the processing

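UBE2K was counted in HCT116, and UBE2S, UBE2K and UBE2Q2 in RKO, under pseudocount, filter and scaling alternatives alike, and correction for GC content and length added UBE2W in RKO. At 2-fold UBE2S, at 0.78, was no longer counted. UBE2K fell short of 2-fold in HCT116 when rescaled without mitochondrially encoded genes, at -0.98, and after quantile normalization, at -0.996. In RKO it did so after the GC and length correction, at -0.81. UBE2K in limma ranged from -0.94 to -1.17, with an adjusted p of 0.052 to 1, and no member passed under any setting. Leaving out a line gave -1.15 without HCT116 and -1.01 without RKO, with no test. Over all genes, the 735 counted in HCT116 became 1156 with a pseudocount of 0.1, 345 with a filter of 5 FPKM and 232 at 2-fold. The 1380 in RKO became 2340, 675 and 358 under the same settings, and 900 after the GC and length correction. The 14 genes passing limma became 7 with a pseudocount of 0.1, 3 at a mean of at least 5 FPKM, 7 when rescaled without mitochondrially encoded genes, 1 after quantile normalization, 1 after the GC and length correction and 0 without the line block. Without the filter 278 passed, in a fit where most residual variances were 0. Between lines, the 2 members apart became 1 at a mean of at least 5 FPKM, where UBE2E2 drops out, and 4 after the rescaling, while the 1511 genes became 661 at a mean of at least 5 FPKM. No counted difference changed sign. The labels carry no replicate numbers, and line is the block of the fit, which pairs the OE and WT libraries of each line. Depth limits the low members most, with about 44 fragments for the lowest measured value.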

Other observations

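UBE2F-SCLY, a readthrough gene that shares 688 bases of exon with UBE2F on the same strand, was at 0.00427 FPKM in HCT116 OE, against 1.29 FPKM in HCT116 WT. In RKO it was at 0.00970 FPKM in OE, against 1.61 FPKM in WT. It was thus near 0 in both OE libraries and above 1 FPKM in both WT libraries. With its fragments added, UBE2F differed by -0.60 in HCT116, which is past 1.5-fold, and by -0.42 in RKO, where UBE2F alone differed by -0.07 and 0.09. How the authors' tool split fragments between the 2 genes was not tested.

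The tables hold 82 rows of pseudogenes of the family. In all 4 libraries 62 of them were at the floor, and 8 had a mean of at least 1 FPKM. UBE2V1P2, the highest, was at 7.76 FPKM in HCT116 OE, against 12.6 FPKM in HCT116 WT, and at 13.6 FPKM in RKO OE, against 11.7 FPKM in RKO WT. UBE2D3P1 was at 1.38 FPKM in RKO OE, against 2.55 FPKM in RKO WT. Reads of such copies can be shared with their parent genes.

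On the opposite strand, UBE2D4 shares 729 bases with POLR2J4, which did not exceed 0.671 FPKM.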
